A study of Mus musculus with 12 samples.

Results

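The effect of carrying an oligonucleotide into peritoneal macrophages (PMs) was examined apart from the oligonucleotide's sequence. The 8 arrays whose titles name a scrambled or an antagomir oligonucleotide were set against the 4 arrays titled Lipofectamin, so that all 12 arrays of the series were used. PMs of C57BL/6 mice had been collected by peritoneal lavage and adhesion and were exposed to exosomes released by cultured sensory neurons. The oligonucleotide was either a miR-21-5p antagomir, an antisense inhibitor of that miRNA (antagomir-21, 4 arrays), or a scramble control (4 arrays), and was given with a cationic lipid reagent, lipofectamine. The lipofectamine arrays carry no oligonucleotide name in their labels and were read as PMs given the reagent alone, a reading that the labels do not spell out. In each transfection, 2 arrays came from PMs given exosomes of neurons overexpressing miR-21 and 2 from PMs given exosomes of neurons with a GFP reporter, so neuronal exosomes were common to all groups and no array shows PMs without exosomes or without lipid. Neither the chemistry of the oligonucleotides nor the sex and age of the donor mice is attached to the arrays.

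Macrophages read foreign nucleic acid in several compartments. Within endosomes, TLR3 binds double-stranded RNA, TLR7 single-stranded RNA and TLR9 DNA with unmethylated CpG. In the cytosol, RIG-I and MDA5 signal through MAVS for RNA and cGAS signals through STING for DNA. These routes converge on kinases that activate IRF3, IRF7 and NF-kappaB, type I interferon is secreted, and its receptor drives many interferon-stimulated genes through a promoter element called the ISRE. Cationic lipid with nucleic acid can also engage the stress pathways of the cell, among them the integrated stress response through the kinase PKR, heat shock proteins and the lysosomal damage response.

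The sequence that distinguishes the antagomir from the scramble control is set by its target, and it is shown because both oligonucleotides were pooled here in spite of it. The mature miRNA is printed 5′ to 3′ with its seed, bases 2 to 8, in capitals (RefSeq, GRCm38.p6, chr11:86584120-86584141, minus strand).
mmu-miR-21a-5p: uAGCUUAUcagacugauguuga
The second set shows where an interferon response would be read. Stretches before the annotated start of 4 interferon-stimulated genes are printed 5′ to 3′ on the strand of the gene, with the ISRE letters GAAANNGAAA, or the same letters read on the other strand (TTTCNNTTTC), in capitals.
Ifit1 (chr19:34640765-34640833, plus strand): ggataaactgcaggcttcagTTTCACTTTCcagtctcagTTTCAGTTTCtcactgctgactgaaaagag
Ifit3 (chr19:34583353-34583436, plus strand): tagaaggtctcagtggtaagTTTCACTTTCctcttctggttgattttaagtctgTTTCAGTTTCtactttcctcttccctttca
Rsad2 (chr12:26456543-26456592, minus strand): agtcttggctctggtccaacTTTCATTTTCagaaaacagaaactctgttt
Cxcl10 (chr5:92349073-92349122, minus strand): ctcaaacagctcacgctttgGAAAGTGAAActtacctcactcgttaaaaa
The promoters are from RefSeq (GRCm38.p6). The first match lay 104 bases before the annotated start of Ifit1, 156 before that of Ifit3, 120 before that of Rsad2 and 213 before that of Cxcl10. The same letters stood in 1131 of 32851 mouse promoters (3.44%).

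Signals are log2 units of the deposited table, and a difference of 1 is a doubling. No gene passed the test. With exosome type as a term and Benjamini-Hochberg adjustment over 18193 genes, limma called 0 genes at an adjusted p under 0.05 for oligonucleotide against lipofectamine, and the lowest adjusted p was 0.799 (Slc35c2). Without adjustment, 664 genes had a p under 0.05 (3.65%), with 358 higher (1.97%) and 306 lower (1.68%) in the oligonucleotide arrays. The methods' t-test, which they give for comparisons of 2 groups and not for the arrays in particular, gave 564 genes at the unadjusted threshold and 0 after adjustment. The median difference over all genes was -0.03, and 48.3% of genes had a positive difference. The calls lay mostly among dim genes: 552 of 9097 genes below the median signal (6.07%) had an unadjusted p under 0.05, against 112 of 9096 genes above it (1.23%). The methods describe the replicates of a condition as collected independently, which the labels do not repeat, and every p measures the spread between these arrays.

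The arrays were noisy, and this sets what could be seen. Across genes, the correlation between pairs of arrays averaged 0.587 within the oligonucleotide arrays (28 pairs), 0.626 within the lipofectamine arrays (6 pairs) and 0.610 between the groups (32 pairs). Lipofectamine with miR-21 exosomes replicate 1 had the lowest mean correlation with the other arrays (0.497), followed by scramble with miR-21 exosomes replicate 1 (0.527) and scramble with GFP exosomes replicate 1 (0.549). The array median was 8.20 ± 0.24 in oligonucleotide arrays and 8.15 ± 0.15 in lipofectamine arrays (SD, n = 8 and 4; exact stratified permutation test, two-sided, p = 0.733). Half-widths of the 95% interval of a difference had a median of 1.32 for genes above the median signal and 2.11 for those below it. Csf1r, the receptor for the macrophage growth factor, averaged 16.56 ± 0.73 in oligonucleotide arrays and 16.16 ± 0.50 in lipofectamine arrays, and Adgre1, a defining surface antigen of mouse macrophages, averaged 12.92 ± 0.75 in oligonucleotide arrays and 12.77 ± 0.37 in lipofectamine arrays. Both markers of the labelled cell type were bright on every array by the brightest probe set of the gene. The other Csf1r probe sets averaged 12.56 and 8.96 over the 12 arrays. In the list of large peritoneal macrophage genes, 8 of 19 measured were higher and 11 lower, with a median of -0.06. The differences ran from -0.77 for Timd4 to 0.61 for Gata6.

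The genes of 16 pathway lists, of which 329 of 360 were measured, lay around 0. Only 5 had an unadjusted p under 0.05 (1.52%), 3 of them higher and 2 lower, against 3.65% of all genes and 1.23% of the genes above the median signal, where 265 of the 329 lay. None passed the adjusted threshold (limma, lowest adjusted p = 0.999), in none did the oligonucleotide and lipofectamine arrays fail to overlap (0.181% of all genes), and the median difference was 0.05. The 95% interval held 0 for 324 of the 329 genes. It lay within 2 log2 units of 0 on either side for 200 of them and within 1 log2 unit for 4. For nearly all of these genes, a doubling or more in at least 1 direction was therefore not excluded. For those whose interval reached beyond 2 log2 units, a difference of that size was not excluded either. Since PMs were measured in bulk, fewer cells of a type and less RNA per cell cannot be told apart in any of these values.

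Of the endosomal sensors and their adaptors, 17 of 20 were measured, of which 6 were higher and 11 lower, with a median of -0.16. Tlr7 had 9.92 at the lowest, 10.66 at the median and 11.36 at the highest in the oligonucleotide arrays, against 10.12, 10.71, 10.29 and 9.99 in the lipofectamine arrays. All 4 lipofectamine values fell inside the range of the oligonucleotide values, and the difference was 0.34 (95% interval -0.65 to 1.33). Tlr3 differed by -0.16 (-1.15 to 0.84). Tlr9 was more variable, with 4.64, 6.75 and 8.80 in the oligonucleotide arrays (lowest, median, highest), against 7.58, 7.74, 8.91 and 8.58 in the lipofectamine arrays. Of the lipofectamine arrays 3 sat in the upper part of that range and 1 just above it, 3 oligonucleotide arrays lay among them, and the difference of -1.34 (-3.15 to 0.46) missed the threshold (adjusted p = 0.999). Unc93b1, which carries these receptors to the endosome, differed by 0.14 (-2.46 to 2.74). The adaptor Myd88 showed the highest difference of the list, 1.80 (SE 0.97), and the kinase Irak2, downstream of it, the lowest.

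Irak2 had 3.48, 5.77 and 8.81 in the oligonucleotide arrays (lowest, median, highest), against 7.78, 7.63, 8.99 and 8.65 in the lipofectamine arrays. The difference was -2.30 (SE 1.02, adjusted p = 0.999). Among the 4 lowest values, 3 were of antagomir-21 arrays, and the difference from lipofectamine was -3.23 for antagomir-21 and -1.37 for scramble.

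**Figure D1:**
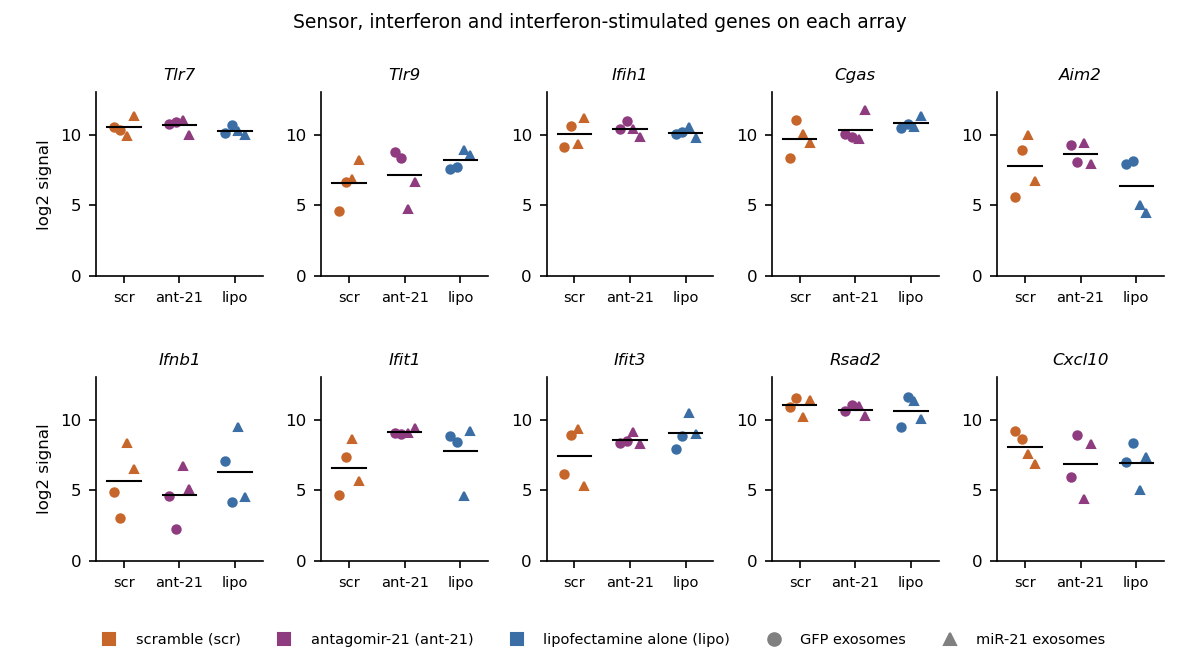
Log2 signal (vertical axis) of 10 sensor, interferon and interferon-stimulated genes on each of the 12 arrays, with scramble and antagomir-21 left of lipofectamine alone, the mean of 4 arrays as a bar, and the exosome type as the symbol. The groups overlap in every panel. Values within some of the transfections spread over several log2 units for genes that include Tlr9, Aim2, Ifnb1, Ifit1, Ifit3 and Cxcl10.

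The cytosolic RNA sensors were centred on 0, with 7 of 15 measured genes higher and 8 lower and a median of -0.01. Ifih1, which encodes MDA5, had 9.13, 10.40 and 11.16 in the oligonucleotide arrays (lowest, median, highest), against 10.09, 10.21, 10.53 and 9.80 in the lipofectamine arrays. The difference was 0.07 (-1.04 to 1.19). Ddx58, which encodes RIG-I, differed by -0.46 (-2.34 to 1.43), and its regulator Dhx58 by -0.70 (-2.26 to 0.86). The adaptor Mavs differed by 0.98 (-1.17 to 3.13), and by -0.10 with the mean of its probe sets. Eif2ak2, which encodes PKR, and the kinase Tbk1 differed by -0.01 and -0.11.

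The cytosolic DNA sensors had a median of -0.18, with 8 of 17 higher and 9 lower, and the median was 0.36 with the mean of all probe sets. Cgas had 8.38, 9.94 and 11.77 in the oligonucleotide arrays (lowest, median, highest), against 10.47, 10.79, 10.59 and 11.36 in the lipofectamine arrays. The difference was -0.77 (-2.07 to 0.53), with lipofectamine values in the upper part of the oligonucleotide range. Sting1, the adaptor of cGAS, differed by 0.53 (-1.14 to 2.21), and Zbp1, a sensor of Z-form nucleic acid, by -0.22 (-1.80 to 1.36). Aim2, which assembles an inflammasome on cytosolic DNA, came nearest to a difference, with 5.59, 8.51 and 10.01 in the oligonucleotide arrays, against 7.93, 8.18, 5.02 and 4.48 in the lipofectamine arrays. Its difference was 1.84 (-0.18 to 3.87), and both low lipofectamine values belonged to the arrays with miR-21 exosomes.

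Over the 3 sensing lists together, 49 of 56 genes were measured, of which 21 were higher and 28 lower. Of these 49 genes, 1 had an unadjusted p under 0.05 (2.04%), against 3.65% of all genes and 1.23% of those above the median signal. Above that signal lay 35 of the 49. The median difference of the 49 genes was -0.07.

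The interferon genes themselves varied widely. Ifnb1 had 2.26, 4.97 and 8.35 in the oligonucleotide arrays (lowest, median, highest), against 7.10, 4.20, 9.49 and 4.51 in the lipofectamine arrays. The values of both groups spanned over 5 log2 units, and the difference was -1.15 (SE 0.99). Ifna4 differed by -1.69 (SE 1.05). Of the 21 measured interferons, receptors and signaling genes, 8 were higher and 13 lower, with a median of -0.19. Ifnar1, a chain of the type I interferon receptor, differed by -1.14 (-2.98 to 0.70), the transcription factor Irf7 by -0.41 (-2.34 to 1.52), and Stat2 and Irf9, partners in the complex that binds the ISRE, by -1.25 (SE 1.01) and 1.12 (SE 0.68).

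The interferon-stimulated genes, whose products carry out the antiviral response, were split almost evenly, with 23 of 42 measured genes higher, 19 lower, 0 at an unadjusted p under 0.05 and a median of 0.02. Their values averaged per array ran from 8.52 to 9.88 in the oligonucleotide arrays, with a median of 9.35, and from 8.98 to 9.62 in the lipofectamine arrays. The range of the lipofectamine arrays lay wholly inside that of the oligonucleotide arrays. Ifit1, which binds uncapped viral RNA, had 4.70, 8.82 and 9.38 in the oligonucleotide arrays (lowest, median, highest), against 8.84, 8.39, 4.58 and 9.19 in the lipofectamine arrays. The difference was 0.10 (-2.26 to 2.46). All 4 antagomir-21 arrays were close together for Ifit1 and all 4 scramble arrays lay below them, so that the antagomir differed from lipofectamine by 1.36 and the scramble by -1.16. Rsad2, which encodes the antiviral enzyme viperin, had a narrower spread, with 10.21, 10.92 and 11.55 in the oligonucleotide arrays, against 9.50, 11.63, 11.30 and 10.02 in the lipofectamine arrays. Its difference was 0.25 (-0.91 to 1.40). Ifit3 differed by -1.05 (-2.79 to 0.70), Oas2, a synthetase that activates RNase L, by -0.87 (-3.19 to 1.45), and the chemokine Cxcl10 by 0.51 (-1.31 to 2.33). The extremes of the list were Oas3 at -1.45 (SE 1.13) and Cmpk2 at 1.67 (SE 1.02). Isg15 is not analysed here.

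Genes that hold the ISRE letters lay around 0 as well. Of the 42 measured interferon-stimulated genes, 32 had a promoter in the RefSeq table and 16 of these held the letters, among them the 4 printed above. The 16 had a median difference of 0.19, ran from -1.45 to 0.67, and 0 had an unadjusted p under 0.05. Over all genes, 523 of 14367 with a promoter held the letters. At an unadjusted p under 0.05, 10 of these were higher and 7 lower (3.25%), against 3.65% of all genes tested. A match is a description of the letters and not of binding.

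**Figure D2:**
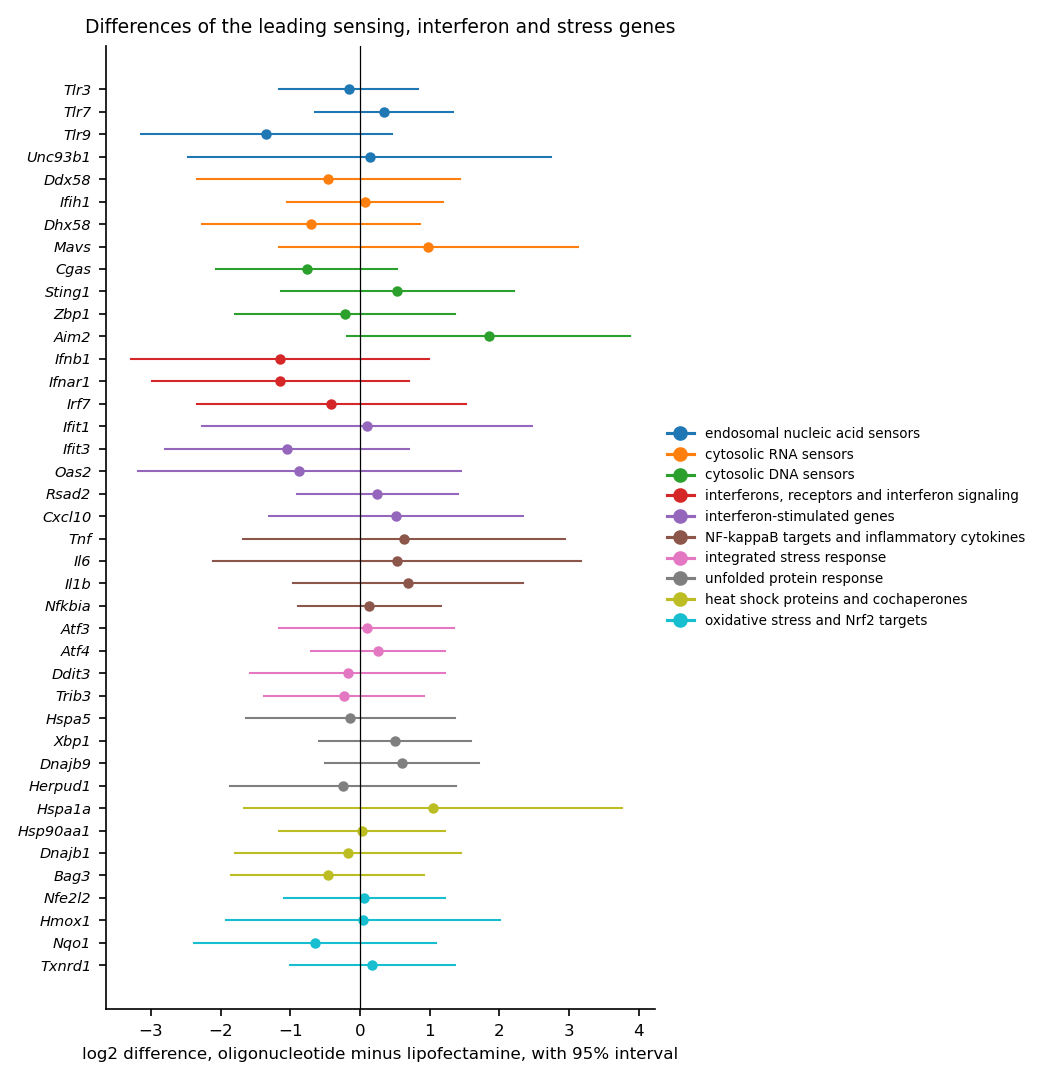
Difference in log2 signal, oligonucleotide minus lipofectamine, with exosome type as a term (points), and its 95% interval (lines), for the leading genes of the sensing, interferon, NF-kappaB and stress lists in color by list. Every interval crosses 0, and the widest is that of Hspa1a, from -1.66 to 3.75.

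Socs1, the feedback inhibitor of JAK signaling, had the highest difference among interferon signaling genes. It had 3.43, 5.96 and 7.97 in the oligonucleotide arrays (lowest, median, highest), against 2.31, 4.16, 5.03 and 4.28 in the lipofectamine arrays. The difference was 2.09 (SE 0.85, adjusted p = 0.999), and the oligonucleotide values within the lipofectamine range were of arrays with miR-21 exosomes. The gene was dim, with a mean of 5.34 over the 12 arrays against a median gene signal of 7.91. With GFP exosomes the oligonucleotide arrays had 7.97, 6.37, 7.95 and 7.97, against 2.31 and 4.16 in the lipofectamine arrays. The difference there was 4.33 (SE 0.85, adjusted p = 0.973). With miR-21 exosomes the difference was -0.15. The difference between the exosome types, tested as an interaction, was -4.48 (SE 1.20) and missed the adjusted threshold (adjusted p = 0.974).

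Of the NF-kappaB targets and inflammatory cytokines, 17 of 25 measured genes were higher and 8 lower, with a median of 0.36 that was 0.085 without lipofectamine with miR-21 exosomes replicate 2. Over all genes 48.3% were higher. The inflammatory cytokines Tnf, Il6 and Il1b differed by 0.63 (-1.68 to 2.94), 0.53 (-2.10 to 3.17) and 0.69 (-0.95 to 2.33). Nfkbia, the inhibitor that NF-kappaB itself induces, was even, with 12.86, 13.96 and 14.80 in the oligonucleotide arrays (lowest, median, highest), against 13.66, 14.30, 13.73 and 13.58 in the lipofectamine arrays. Its difference was 0.13 (-0.89 to 1.16). For Nos2, the inducible nitric oxide synthase, the 95% interval of the difference was -0.86 to 2.86.

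Ccl5, a chemokine induced by both IRF3 and NF-kappaB, had 6.67, 8.47 and 9.28 in the oligonucleotide arrays, against 7.98, 8.13, 6.61 and 4.97 in the lipofectamine arrays. One oligonucleotide array, antagomir-21 with miR-21 exosomes replicate 1, lay among the lipofectamine values and the other 7 lay above all of them. The difference was 1.52 (SE 0.64, adjusted p = 0.999), made of 1.74 for scramble and 1.30 for antagomir-21, which share the lipofectamine arrays.

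The 5 stress lists, with 102 of 109 genes measured, had 58 genes higher and 44 lower, and their median was 0.05. An unadjusted p under 0.05 was reached by 1 gene (0.980%), against 3.65% of all genes. It was 1.23% of the genes above the median signal, where 82 of the 102 lay. In the integrated stress response, which slows translation through eIF2 phosphorylation, 12 of 24 genes were higher and 12 lower. Atf4, its central transcription factor, had 10.49, 11.84 and 12.19 in the oligonucleotide arrays (lowest, median, highest), against 11.00, 11.68, 11.47 and 11.08 in the lipofectamine arrays. The difference was 0.26 (-0.70 to 1.22). The ATF4 targets Atf3, Ddit3 and Trib3 differed by 0.10 (-1.15 to 1.35), -0.17 (-1.57 to 1.23) and -0.23 (-1.38 to 0.92).

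In the unfolded protein response, which answers misfolded protein in the endoplasmic reticulum, 13 of 22 genes were higher and 9 lower, with a median of 0.06. Hspa5, the chaperone BiP, differed by -0.14 (-1.64 to 1.36), and Xbp1 and Dnajb9, a transcription factor of this response and one of its targets, by 0.50 (-0.59 to 1.59) and 0.61 (-0.50 to 1.71).

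Among heat shock proteins and cochaperones, 10 of 18 were higher and 8 lower, with a median of 0.02. Hspa1a, the inducible Hsp70, was scattered, with 3.18, 6.59 and 9.01 in the oligonucleotide arrays (lowest, median, highest), against 6.20, 3.08, 8.58 and 3.77 in the lipofectamine arrays, and the difference of 1.05 had an interval of -1.66 to 3.75. Hspa1a has a near-identical copy, Hspa1b, which differed by 0.28, and probes may not separate them. Hsp90aa1 differed by 0.03 (-1.17 to 1.22). The small heat shock protein Cryab had 4.86, 7.73 and 8.87 in the oligonucleotide arrays, against 6.95, 4.06, 6.49 and 4.33 in the lipofectamine arrays. The groups overlapped, and the difference of 1.92 (SE 0.81, adjusted p = 0.999) was 0.80 with the mean of all its probe sets.

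The oxidative stress genes driven by NRF2 had 14 of 17 members higher and 3 lower, but by little, with a median of 0.16 and 0 at an unadjusted p under 0.05. Array means of this list ran from 10.46 to 11.77 in the oligonucleotide arrays and from 10.94 to 11.23 in the lipofectamine arrays. The range of the lipofectamine arrays was again enclosed by that of the oligonucleotide arrays. Hmox1, heme oxygenase 1, differed by 0.05 (-1.92 to 2.01) and Nqo1 by -0.65 (-2.38 to 1.08), while Txnrd1 and Nfe2l2 differed by 0.18 (-1.01 to 1.36) and 0.06 (-1.09 to 1.22). The p53 and DNA damage list had the lowest median of the pathway lists, -0.29, with 9 of 21 higher and 12 lower. Its arrest gene Cdkn1a differed by -1.13 (-3.66 to 1.39) and the interval of Mdm2 ran from -1.21 to 1.21. In the cell death and inflammasome list, 10 of 18 were higher. Nlrp3 differed by -1.12 (-2.59 to 0.35), Casp1 by 0.33 (-0.87 to 1.54) and the pore former Gsdmd by 0.89 (-1.18 to 2.95).

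**Figure D3:**
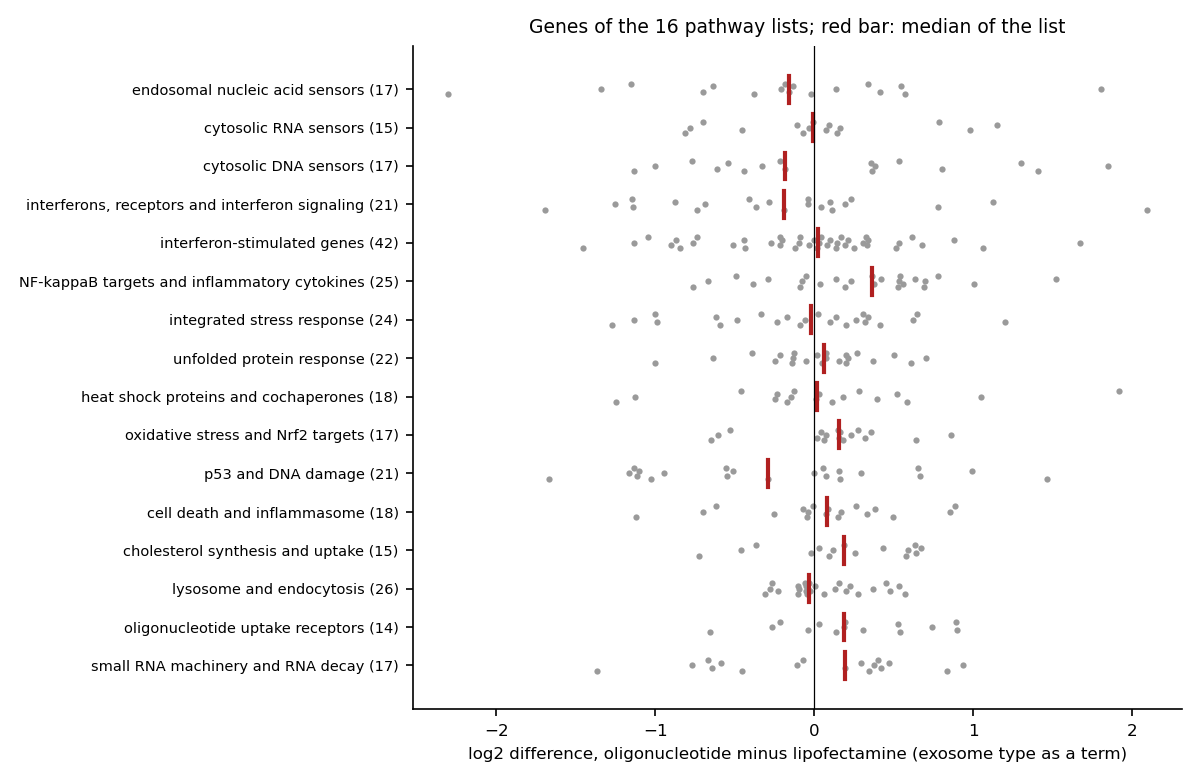
Difference in log2 signal, oligonucleotide minus lipofectamine, of each measured gene (gray points) of the 16 pathway lists, with the list's median as a red bar and the number of measured genes in parentheses. The medians run from -0.29 for p53 and DNA damage to 0.36 for NF-kappaB targets and inflammatory cytokines, and the lysosome and endocytosis genes are the most tightly packed, from -0.31 to 0.57.

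Genes that handle the lipid and the oligonucleotide after uptake had the narrowest range of differences of the 16 pathway lists. Of 26 lysosome and endocytosis genes, 12 were higher and 14 lower, the median was -0.03, all differences lay between -0.31 and 0.57, and for 25 the 95% interval lay within 2 log2 units of 0. The median was -0.30 for scramble and 0.29 for antagomir-21, which share the lipofectamine arrays, and for both oligonucleotides together it was 0.33 without lipofectamine with miR-21 exosomes replicate 1. The lysosomal membrane protein Lamp1 had 12.94, 13.89 and 14.61 in the oligonucleotide arrays (lowest, median, highest), against 13.84, 14.04, 13.92 and 13.65 in the lipofectamine arrays. Its difference was -0.04 (-1.10 to 1.03). The protease Ctsd differed by 0.01 (-1.55 to 1.56), and Rab7, a small GTPase of late endosomes, by 0.13 (-1.09 to 1.36).

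Of the 14 receptors and channels that can take up or move oligonucleotides, 10 were higher and 4 lower, with a median of 0.19. The scavenger receptors Msr1 and Stab1 differed by 0.14 (-0.99 to 1.26) and 0.19 (-0.76 to 1.15). Sidt2, a lysosomal nucleic acid transporter, had 9.12, 9.55 and 10.21 in the oligonucleotide arrays, against 8.02, 9.20, 10.20 and 7.33 in the lipofectamine arrays. The oligonucleotide values were the more compact, and the difference was 0.90 (-0.32 to 2.12).

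In the small RNA machinery, the Argonaute protein Ago2, which loads miRNAs, differed by -0.77 (-2.52 to 0.98) and by -0.015 with the mean of its probe sets, Dicer1, which cuts their precursors, by 0.19 (-1.05 to 1.44), and the silencing scaffold Tnrc6a by 0.34 (-0.65 to 1.33). The exonuclease Xrn2 had 7.56, 9.44 and 10.43 in the oligonucleotide arrays (lowest, median, highest), against 10.46, 10.44, 10.94 and 10.31 in the lipofectamine arrays. Of the 4 lipofectamine values 3 lay above all oligonucleotide values, and the difference of -1.37 (SE 0.62, adjusted p = 0.999) was -0.47 with the mean of all its probe sets. In the cholesterol list, which rises when cells lack sterol, 11 of 15 were higher and 4 lower, with a median of 0.19. Insig1, a sterol-regulated brake on that pathway, differed by 0.64 (-0.56 to 1.83).

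**Figure D4:**
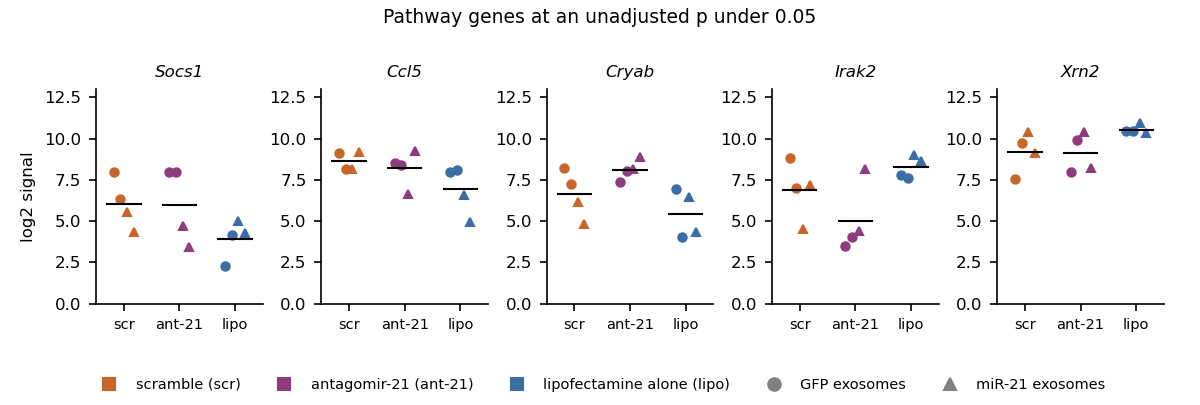
Log2 signal (vertical axis) on each array for the 5 pathway genes with an unadjusted p under 0.05, with scramble and antagomir-21 left of lipofectamine alone, means of 4 arrays as bars and exosome type as the symbol. All 5 overlap between the groups, and the lipofectamine arrays of Xrn2 lie within 10.31 to 10.94.

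Each oligonucleotide was also compared with lipofectamine on its own. For scramble against lipofectamine, 708 of 18193 genes had an unadjusted p under 0.05 (3.89%, with 1.98% higher and 1.91% lower) and 0 an adjusted p under 0.05 (limma, lowest 0.991), and 4 of the 329 pathway genes had an unadjusted p under 0.05 (1.22%). These were Cmpk2 (2.61) and Ccl5 (1.74), which were higher, and the stress sensor Atf6 (-1.84) and the p53 target Zmat3 (-2.33), which were lower. For antagomir-21 against lipofectamine, 819 genes had an unadjusted p under 0.05 (4.50%, with 1.57% higher and 2.94% lower) and 0 an adjusted one (lowest 0.438, Egfl7), and 3 of the 329 pathway genes did (0.912%). These were Cryab (2.66), Irak2 (-3.23) and Stc2 (-2.46), a hormone gene of the integrated stress response. Both comparisons use the same 4 lipofectamine arrays.

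The comparison was then split by exosome type. With GFP exosomes, 511 genes had an unadjusted p under 0.05 for oligonucleotide against lipofectamine (2.81%) and 0 an adjusted one (limma, lowest 0.485), and 1 of the 329 pathway genes did (0.304%), Socs1. With miR-21 exosomes, 896 genes had an unadjusted p under 0.05 (4.92%, with 3.02% higher and 1.91% lower) and 0 an adjusted one (lowest 0.611), and 12 pathway genes did (3.65%), 8 of them higher and 4 lower. The 8 higher genes were the DNA sensors Aim2 (3.78), Ddx41 (3.77) and Xrcc5 (3.07), with Irf9 (2.18), Ccl5 (2.54), the stress gene Ddit4 (3.01), the endoplasmic reticulum isomerase Pdia4 (3.15) and the necroptosis effector Mlkl (2.09). The 4 lower genes were Ifna4 (-3.56), the ubiquitin ligase Traf6 (-2.49), the cochaperone Fkbp4 (-2.27) and the death receptor Tnfrsf10b (-3.02). The interaction had 677 genes at an unadjusted p under 0.05 (3.72%) and 0 at an adjusted one (lowest 0.487), so a difference between the exosome types passed the test for no gene. Within each exosome type the comparison rests on 2 lipofectamine arrays.

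Ddx41, a helicase that binds cytosolic DNA, is an example. The oligonucleotide arrays had 5.02, 7.64 and 9.09 (lowest, median, highest), against 7.47 and 8.03 in lipofectamine arrays with GFP exosomes and 5.01 and 3.64 in those with miR-21 exosomes. Both lipofectamine arrays with miR-21 exosomes were low, and the interaction of 4.95 did not pass the adjusted threshold (adjusted p = 0.974). The medians of the interferon-stimulated genes were 0.25 with GFP exosomes and -0.46 with miR-21 exosomes, with 0 genes at an unadjusted p under 0.05 in either.

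Some markers of other cells were bright in these preparations, which had been enriched by adhesion, and others were dim. Above the median signal lay 5 of 9 measured B cell genes, 4 of 9 mast cell genes and 2 of 10 T and NK cell genes. Among all genes 9096 of 18193 lay above it, so these counts do not single out a cell type. The counts were 4 of 6 for Schwann and satellite glia, 5 of 12 for mesothelial and fibroblast and 3 of 8 for dendritic cell genes. For neutrophil and eosinophil genes it was 3 of 10, and for sensory neuron genes 2 of 12. The B cell gene Ms4a1 averaged over 12 log2 units in both groups, with 12.55 as the median of the oligonucleotide arrays and 12.56, 12.36, 11.19 and 12.66 in the lipofectamine arrays, and its difference was 0.33. The mast cell protease Cpa3 differed by 0.28. Of 95 measured genes in 9 cell type lists, 2 had an unadjusted p under 0.05 (2.11%), against 3.65% of all genes. The 2 were Fcer1a, a chain of the IgE receptor of mast cells, at 3.26 (SE 0.72), and Ccr7, a homing receptor of dendritic cells, at -2.16 (SE 0.89). Fcer1a had 6.10, 8.09 and 9.92 in the oligonucleotide arrays (lowest, median, highest), against 6.70, 3.40, 4.66 and 4.69 in the lipofectamine arrays. The other mast cell markers did not share that size of difference, with a list median of 0.15, and the mast cell array means ran from 7.30 to 8.86 in the oligonucleotide arrays and from 7.07 to 7.88 in the lipofectamine arrays. The part of other cells in the values above was not tested.

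Outside the lists, groups that did not overlap were rare, 33 of 18193 genes (0.181%), with 17 higher (0.0934%) and 16 lower (0.0879%). Of these, 20 lay above the median signal (0.220% of those genes), 10 in each direction (0.110%). None had an adjusted p below 0.799. Among the brighter genes, Oard1, which encodes an enzyme that removes ADP-ribose, had 8.81, 9.57 and 10.46 in the oligonucleotide arrays (lowest, median, highest), against 8.25, 8.28, 7.68 and 7.22 in the lipofectamine arrays. The difference was 1.82 (SE 0.49, adjusted p = 0.999). Akt1s1, the mTORC1 component PRAS40, had 8.34, 9.44 and 10.60 in the oligonucleotide arrays, against 7.74, 7.85, 5.19 and 7.35 in the lipofectamine arrays. Its difference was 2.29 (SE 0.65), and 1.28 with the mean of all its probe sets. Pik3r4, a subunit of the class III phosphatidylinositol kinase that acts on endosomes, had 8.76, 9.70 and 10.34 in the oligonucleotide arrays, against 7.73, 8.24, 5.85 and 8.55 in the lipofectamine arrays, and the 95% interval of the difference was 0.72 to 3.28. In both of these genes the lowest lipofectamine value was that of the array with the lowest correlation. The same array was also the lowest for B3gnt7 (5.65), Rpl39 (7.11), Slc18a1 (5.80) and Rps6 (10.26), which are named below. That the other 3 lipofectamine arrays lay below all 8 oligonucleotide arrays follows from the choice of genes without overlap.

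Syne1, a nuclear envelope protein, differed by 1.72 (SE 0.49), with 9.30 to 10.15 in the oligonucleotide arrays and 6.93 to 9.14 in the lipofectamine arrays. The other genes that were higher were B3gnt7 (1.63), Slc18a1 (1.61, and 0.26 with the mean of all its probe sets), Rpl39 (1.46), Tpmt (1.18), Cab39l (0.93) and Rps6 (0.72), of which the ribosomal protein genes Rpl39 and Rps6 have near-identical copies that the probes may not separate. Cab39l (limma, unadjusted p = 0.0544) and Rps6 (unadjusted p = 0.108) missed even the unadjusted threshold. Of the lower genes, Lmbr1, a membrane receptor gene, had 5.13, 7.36 and 8.77 in the oligonucleotide arrays (lowest, median, highest), against 9.29, 9.36, 9.71 and 10.30 in the lipofectamine arrays. The difference was -2.39 (SE 0.73), and it was -0.38 with the mean of all its probe sets. The remainder were Ccl28 (-1.86), Gm41724 (-1.79), Gm19950 (-1.65), Zfp54 (-1.49), 4732416N19Rik (-1.44), Gm11266 (-1.41), Pygo2 (-1.30), Bend5 (-1.28) and Elf2 (-1.14). Genes that missed the unadjusted threshold include Gm41724 (limma, unadjusted p = 0.0657) and 4732416N19Rik (unadjusted p = 0.0881). In several of the lower genes the lipofectamine values were tightly packed and single oligonucleotide values lay far below them. For Pygo2, a coactivator in Wnt signaling, the lipofectamine arrays lay between 10.20 and 10.21 and the oligonucleotide arrays between 6.64 and 9.84.

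**Figure D5:**
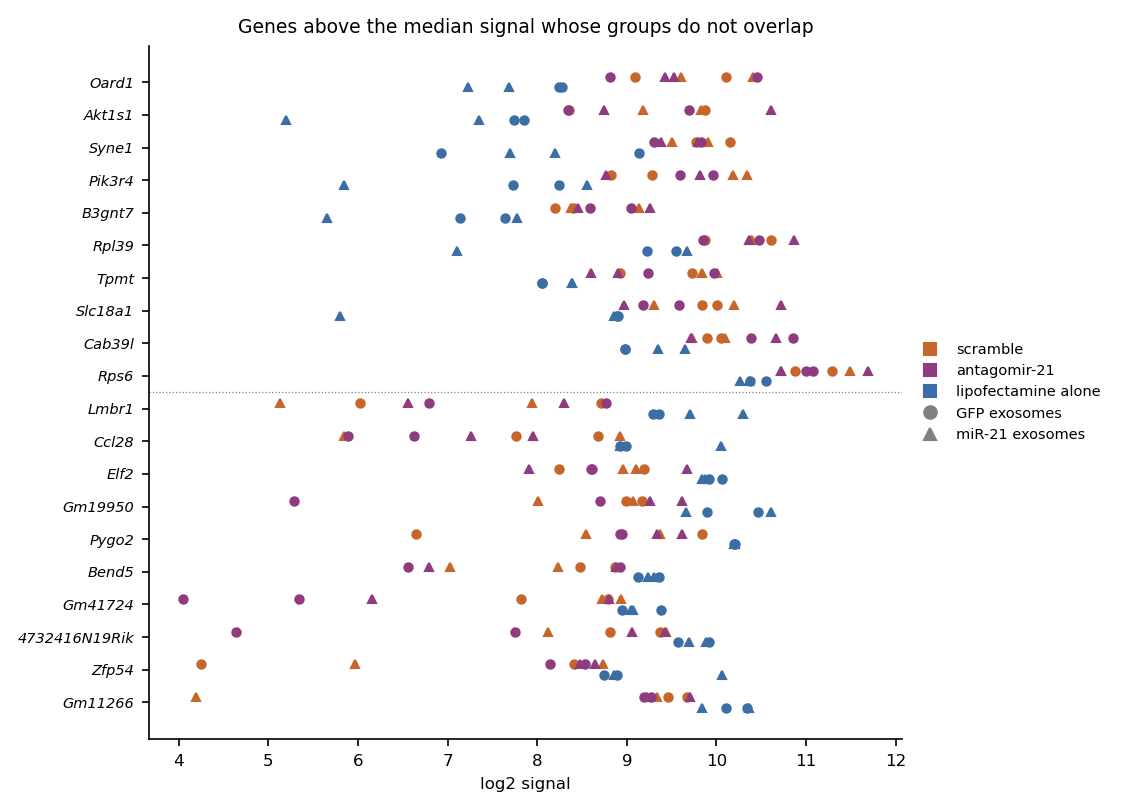
Log2 signal (horizontal axis) on each array for the 20 genes above the median signal whose oligonucleotide arrays (upper row of symbols for each gene) and lipofectamine arrays (lower row) do not overlap, with the 10 higher genes above the dotted line and the 10 lower genes below it. Several of the lower genes, such as Gm11266 from 4.19 to 9.70, have a single oligonucleotide array far below the rest.

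Most of the smallest p values belonged to dim genes. Slc35c2, a Golgi nucleotide sugar transporter gene, had 7.78, 8.64 and 9.37 in the oligonucleotide arrays (lowest, median, highest), against 4.08, 6.53, 5.59 and 4.79 in the lipofectamine arrays. The difference was 3.35 (SE 0.56, adjusted p = 0.799), with 3.40 for scramble and 3.30 for antagomir-21, and 3.39 with GFP exosomes and 3.31 with miR-21 exosomes. The gene was chosen for its small p, and both oligonucleotides were set against the same lipofectamine arrays. The difference was 1.24 with the mean of all its probe sets. Per1, a gene of the circadian clock, had 5.73, 7.81 and 8.69 in the oligonucleotide arrays, against 2.85, 5.29, 4.88 and 4.45 in the lipofectamine arrays. Its difference was 3.25 (SE 0.66, adjusted p = 0.999). Lrrc19 (3.11) and Opn1mw (2.18) followed.

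In the other direction, Rhag, a gene of the erythroid Rh complex, had 2.83, 3.73 and 6.02 in the oligonucleotide arrays (lowest, median, highest), against 6.69, 7.87, 9.30 and 7.12 in the lipofectamine arrays, a difference of -3.67 (SE 0.68). Serpinb6e (-3.63), Rcvrn (-2.93), Rdm1 (-2.40) and Vgll1 (-2.31) were the others. Signals at this level may not stand above background, which the table does not give.

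Other probe sets of the leading genes were not uniform. Of the 29 genes named because their groups did not overlap, 13 had further probe sets, 26 in all, of which 14 had the same sign of difference and 12 the opposite sign. The median size of the difference was 1.65 for the probe sets used and 0.67 for the others. With the mean of all probe sets Ccl28, Elf2 and Cab39l changed sign, to 0.34, 0.022 and -0.21. Over all 130 genes named by rule, 66 had more than 1 probe set, and with the mean of these the difference turned sign in 17, shrank by over 1.5 times in 23, grew by over 1.5 times in 13 and stayed within 1.5 times in 13. Those that turned include Dhx58 (0.12), Rsad2 (-0.096), Hspa5 (0.036), Nfe2l2 (-0.14), Rab7 (-0.19), Msr1 (-0.17), Dicer1 (-0.38) and Csf1r (-0.12).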

How the data were processed

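PMs were profiled on 12 Affymetrix mouse arrays, 2 in each of 6 groups, grouped by their labels; the methods state biological triplicates, and 2 per group were used. The values that the authors deposited are log2 signals, one for each probe set. On the linear scale the trimmed mean of every array was 496 to 499, so each array had been set to a common mean, whereas the methods describe RMA background correction and quantile normalization with the affy package; the arrays do not share a distribution, so the steps behind the deposited values are not settled. Depth has no meaning for arrays, and their number limits the precision.

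Of 45037 probe sets, 34945 had 1 gene symbol, 932 had several and 9160 were not in the annotation table. For each of 18193 genes, the brightest of its probe sets by the mean of the 12 arrays was kept. Oligonucleotide arrays (8) were compared with lipofectamine arrays (4) with limma 3.58.1 in R 4.3.3 on the log2 values, exosome type being an additive term (9 residual degrees of freedom), with eBayes and Benjamini-Hochberg adjustment over all genes; the code was tested on simulated data. Each transfection, each exosome type and the interaction were tested likewise. Array summaries were compared with an exact permutation test within exosome types.

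Named genes were the leading members of each list, list members at an unadjusted p under 0.05, the 10 genes per direction of smallest p above the median signal whose groups do not overlap, and the 5 per direction over all genes. The members and lists were chosen with earlier results of these data known. Alternatives were quantile normalization, median centring, the mean of all probe sets, a filter on dim genes, other models, a replicate block, array weights, an intensity trend, the methods' t-test and leaving out arrays. Motif letters were searched on both strands of RefSeq promoters (GRCm38.p6). Replicate numbers did not pair the samples.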

Additional observations from a re-analysis of the deposited data

Results flagged for a closer look

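A single array stood far from the others of its group in 29 of 314 gene and list tests (9.24%). Chance alone marks about 1 in 20 groups of normally distributed values in this way, and an excess over it was not tested. All values are log2 signals, and no cause was tested. In the oligonucleotide arrays all 16 such values lay below the rest. Scramble with miR-21 exosomes replicate 1 was low for the sensing adaptors Mavs (4.24) and Sting1 (5.91), for Il1b (4.54), Hmox1 (5.46) and Tsc22d3 (8.28). Scramble with miR-21 exosomes replicate 2 was low for Ddx58 (5.07), Ddit3 (7.09) and Gm11266 (4.19), and scramble with GFP exosomes replicate 1 for Cd79a (5.13) and Pygo2 (6.64). Of the antagomir-21 arrays, replicate 2 with GFP exosomes was low for Gm19950 (5.28), 4732416N19Rik (4.64) and Arntl (4.03), replicate 1 with miR-21 exosomes for Nqo1 (4.23) and Ccl5 (6.67), and replicate 2 with miR-21 exosomes for Dnajb1 (6.12).

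Of the 13 such values in lipofectamine arrays, 10 were of lipofectamine with miR-21 exosomes replicate 1, the array of lowest mean correlation. It was high for the stress genes Herpud1 (9.79) and Bag3 (9.50), for the mesothelial marker Upk3b (8.11), Ccl28 (10.05) and Zfp54 (10.06), and in the mean of the neutrophil and eosinophil list (7.88). It was low for Hmox1 (7.16), the peritoneal macrophage factor Gata6 (5.87), Slc18a1 (5.80) and the mean of the B cell list (7.55). Lipofectamine with miR-21 exosomes replicate 2 was low for Opn1mw (4.20) and high in the mean of the mesothelial and fibroblast list (8.28), and lipofectamine with GFP exosomes replicate 2 was low for Ncr1 (4.85).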

How the results depend on the processing

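Under every alternative, 0 genes had an adjusted p under 0.05 for oligonucleotide against lipofectamine; the lowest adjusted p was 0.0665 without scramble with GFP exosomes replicate 1 and 0.187 with array weights. The 664 genes at an unadjusted p under 0.05 (358 higher, 306 lower) became 695 (485, 210) after quantile normalization, 693 (329, 364) after median centring, 192 (144, 48) among genes above the median signal tested alone, 1268 with array weights, 1409 over every probe set, and 577 to 847 when an array was left out. The share of calls that were higher was 53.9%, against 69.8% with quantile normalization and 47.5% with median centring, which moved the median of all genes to 0.01 and -0.08. The cause of these shifts was not tested.

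Leaving out an array gave 637 to 1121 genes for scramble against lipofectamine, the highest without scramble with GFP exosomes replicate 2, and 675 to 1455 for antagomir-21, the highest when replicate 2 of antagomir-21 given miR-21 exosomes was left out. It gave 307 to 735 with GFP exosomes, the lowest without lipofectamine with GFP exosomes replicate 2, 642 to 1654 with miR-21 exosomes, and 447 to 1588 for the interaction, both highest without lipofectamine with miR-21 exosomes replicate 2. The median of cytosolic DNA sensors was 0.36 with the mean of all probe sets and 0.37 without the 3 arrays of lowest mean correlation, a setting chosen after the data were seen, in which the cholesterol median was 0.62. The NF-kappaB median ranged from 0.085, without lipofectamine with miR-21 exosomes replicate 2, to 0.42 when an array was left out. Of the 16 list medians, 13 changed sign when some array was left out, and those of NF-kappaB targets, p53 and uptake receptors did not.

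The replicate numbers did not pair the samples (15 correlations between groups, -0.19 to 0.17, 1 over 0.1), and a fit with the replicate block gave 660 genes at an unadjusted p under 0.05. Over the alternatives, pathway genes at that threshold made up 0.608% (without antagomir-21 given miR-21 exosomes, replicate 2) to 3.34% (array weights, and without the 3 arrays), where all genes made up 4.66%, 6.97% and 4.55%. Of the 18 alternatives run for single genes, Socs1 lost that threshold in 2, Ccl5 in 5, Cryab in 8, Irak2 in 8 and Xrn2 in 13. Ccl28 and Elf2 turned to 0.34 and 0.022 with the mean of all probe sets.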

Other observations

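Letters of the heat shock and endoplasmic reticulum elements were searched as well. The heat shock element letters GAANNTTCNNGAA stood in 198 of 32851 promoters (0.603%) and in the promoters of 4 of 15 heat shock list genes with a promoter (Hsph1, Hspd1, Hspe1 and Chordc1), which had a median difference of 0.15, with 0 at an unadjusted p under 0.05. Over all genes with these letters it was 5 of 88 (5.68%). The endoplasmic reticulum stress element letters (CCAAT, 9 further bases, CCACG) stood in 39 promoters (0.119%) and in those of 8 of 19 unfolded protein response genes, with a median difference of -0.09 and 0 at an unadjusted p under 0.05, and over all genes with them it was 1 of 20, against 3.65% of all genes tested.

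Since Per1 was among the genes of smallest p, the other clock genes were looked at after its values were seen. Cry1, a repressor of the clock, differed by 1.69 (SE 0.66). Both lipofectamine arrays with miR-21 exosomes were low, with 6.49 and 5.39, against 8.11 to 10.23 in the oligonucleotide arrays. The lipofectamine arrays with GFP exosomes averaged higher than these, within the range of the oligonucleotide arrays. The other members lay on both sides of 0. Per2 (-1.99, SE 1.03), Per3 (-1.36), Nr1d1 (-1.03) and Dbp (-0.29) were lower. Arntl (0.05), Cry2 (0.18), Nr1d2 (0.22) and Clock (0.48) were higher, by less than Per1. With the mean of all probe sets, Per2 was -0.64, Per3 -0.65, Dbp -0.62 and Nr1d2 0.60. Arntl and Clock turned sign with that mean, to -0.17 and -0.08. Fkbp5 and Tsc22d3, which glucocorticoids induce, differed by -0.27 and -0.59. With the mean of all their probe sets the differences were 0.70 and -0.19, so the sign for Fkbp5 depends on the probe set.

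Vmp1, the host gene of miR-21, had 10.52, 11.40 and 11.85 in the oligonucleotide arrays (lowest, median, highest), against 11.19, 11.53, 10.91 and 11.59 in the lipofectamine arrays, a difference of 0.02 (SE 0.44).

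Among the 10092 probe sets with no single gene name, 390 had an unadjusted p under 0.05 (3.86%) and 0 an adjusted p under 0.05 (limma).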
